A study of Saccharomyces cerevisiae with 8 samples.

Results

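The first-hour response of *S. cerevisiae* Temohaya-MI26, the less ethanol tolerant of the 2 strains studied, was taken as the log2 ratio in the column of cells with 10% ethanol minus that in the column without ethanol, for every open reading frame (ORF) of the array. Both columns had a value for 5872 of 6152 ORFs, and these 5872 differences are described here. Another 144 ORFs had a value only without ethanol, 105 only with ethanol, and 31 in neither column. Cells labelled TEMOHAYA-26 were grown in GPY, a rich glucose medium, and were sampled 1 h after they had been transferred to medium with 0 or 10% (v/v) ethanol. No gene was deleted and no other agent was added in either culture. CECT10094, the more tolerant strain (labelled PE35M), and later samples of both strains complete the 8 conditions of the series, and enter here only where set beside Temohaya-MI26. On spotted DNA arrays the cDNA of each sample, in Cy5, was read against that of a shared pool of RNA from all samples, in Cy3, with no dye swap, so that a log2 ratio of 0 stands for the level of the pool.

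Each column was the median of 3 slides and is the only record of its condition, so there was no replicate check of any difference, no p-value was computed, and the small number of slides sets the precision. The median of all differences was -0.08, and differences are given relative to it. An ORF is said to have risen or fallen where its difference passed the limits of the study's methods, a fixed number of standard deviations (SD 1.09) on either side of the mean difference. This put the limits at 2.15 and -2.13 on the log2 scale, which are 4.44-fold and 4.39-fold. These limits only pick out the extremes of the spread and test nothing. Where a call was lost when the columns were scaled otherwise, by a loess correction of the difference on the mean of both columns or by quantile normalization, this is said beside it. In bulk RNA on arrays scaled to one another, a lower share of the RNA and fewer molecules per cell cannot be told apart.

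Ethanol loosens membranes, unfolds proteins and slows growth. In budding yeast, sudden stress of many kinds is known to bring on the environmental stress response, in which the transcription factors Msn2 and Msn4 turn on genes of protein folding, redox balance and reserve carbohydrates, while genes of ribosomes and translation are turned down. The heat shock factor Hsf1 acts on chaperone genes, and protein kinase A, which is active in cells growing on glucose, holds the stress genes back.

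In Temohaya-MI26, 161 ORFs rose and 181 fell after 1 h with ethanol, 2.74% and 3.08% of those measured. *HSP12*, *ECM4*, *ACS1* and *ALD3* had the largest rises and *PDC5*, *RPS20* and *RPS12* the largest falls. The middle of the distribution was narrow beside these ends, with the lower and upper quartiles of all differences at -0.56 and 0.57. The ORFs that rose had a median level of -1.97 without ethanol and 0.96 with ethanol, each relative to the median of its column. Without ethanol all 161 of them lay below the column median, and with ethanol 150 lay above it. In 126 of the 161 (78.3%) the level without ethanol was farther from its column median than the level with ethanol, against 58.1% of all ORFs. The ORFs that fell had medians of 1.40 without and -1.49 with ethanol, and the share that lay farther out without ethanol was 38.7%. All 181 lay below the column median with ethanol. Both sets were chosen by the difference between these same 2 columns. That choice by itself tends to place a rising ORF low without ethanol and high with it, and a falling ORF the other way. The positions and shares therefore only describe the sets. The spots that carry no yeast gene, a buffer and an *Arabidopsis* control, had differences of -0.56 and 0.33, both inside the limits.

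**Figure D1:**
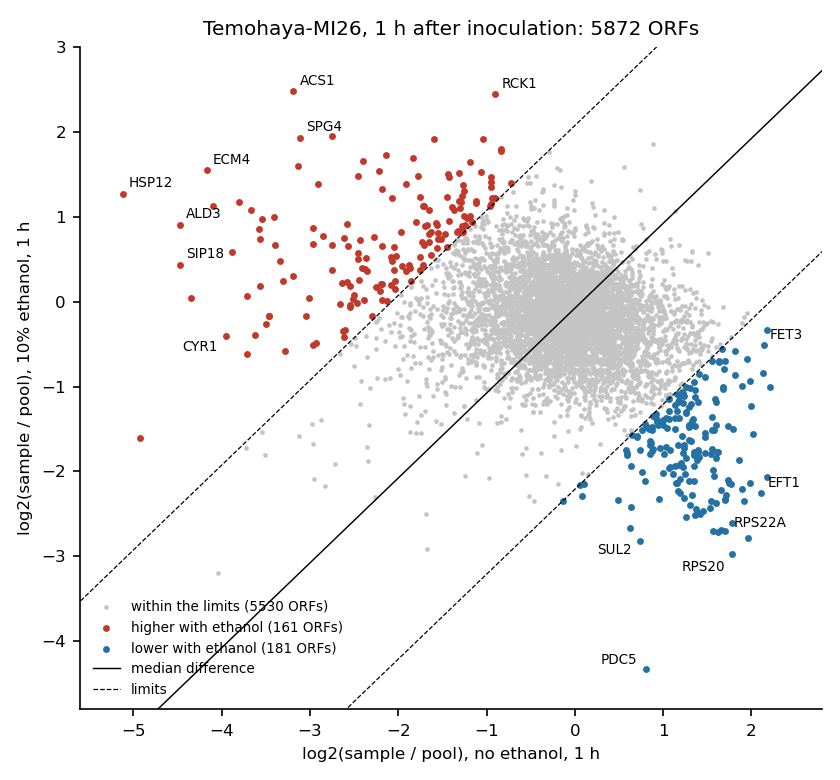
Each point is 1 of 5872 ORFs, with its log2 ratio to the pool without ethanol on the horizontal axis and with 10% ethanol on the vertical axis, both 1 h after inoculation. The solid line is the median difference (-0.08) and the dashed lines the limits; the 161 ORFs that rose (red) spread far to the left, down to -5.12 for *HSP12*, and the 181 that fell (blue) sit at the right and below, with *PDC5* at -4.32 with ethanol.

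The strongest rises were among genes of stationary phase, desiccation and general stress. *HSP12* encodes a small protein that binds membranes. Its log2 ratio was -5.12 without ethanol and 1.27 with it, a relative difference of 6.47, or 88.9-fold. The difference was 4.60 under loess and 5.85 under quantile scaling. Of 16 measured genes on the list of hydrophilins and stationary-phase stress genes, 11 rose and none fell. The list median was 3.77 beside 0 for all ORFs, and 2.52 under loess. *SIP18* and *GRE1*, hydrophilin genes known from desiccation, went from -4.48 to 0.44 and from -3.34 to 0.47, with relative differences of 4.99 and 3.89. *SPG4*, a gene of survival in stationary phase, went from -3.11 to 1.93 (5.12). *MSC1*, *RTN2* (a reticulon of the endoplasmic reticulum), *SPI1* (a cell wall protein), *FMP16*, *RTC3*, *DDR2* and *DDR48* completed the 11, with relative differences between 2.20 and 4.60. The other 5 measured genes lay above the median of all ORFs too, the lowest at 0.88. Every member that rose was below the pool without ethanol and above it with ethanol. The call of *DDR48* was lost under both loess (1.78) and quantile scaling (2.00).

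Several enzymes of detoxification and redox balance stood as high. *ECM4*, a glutathione transferase gene, went from -4.17 to 1.55, a relative difference of 5.80 or 55.6-fold. *ALD3*, a cytosolic aldehyde dehydrogenase gene, went from -4.48 to 0.91 (5.46), whereas the adjoining gene *ALD2*, which encodes a closely related enzyme, was at 0.08 and -0.16, a relative difference of -0.16. The list of 16 aldo-keto and other stress reductases had 7 members that rose, none that fell and a median of 1.70. *YMR090W* and *YML131W* led them with 4.51 and 4.37, followed by *GCY1* (3.62), *YNL134C* (3.37), *YDL124W* (2.71), *YJR096W* (2.44) and *GRE3*, the aldose reductase gene (2.35). Under loess 4 of the 7 calls were kept, and the list median was 0.99. The calls of *YNL134C* (1.59), *YDL124W* (1.35) and *GRE3* (0.84) were lost under loess, that of *GRE3* also under quantile scaling (1.83). Among glutathione genes *GTT1*, another transferase, also rose (2.56, but 1.25 and not called under loess), 2 of 14 in all. Among 21 thioredoxins, glutaredoxins and peroxiredoxins no member passed a limit and the median was 0.74. The highest were *GRX2* and *GRX1*, the dithiol glutaredoxins of the cytosol, at 1.92 and 1.86, and the lowest was the monothiol glutaredoxin gene *GRX4* at -0.79. None of 5 measured genes of catalases, superoxide dismutases and flavohemoglobin passed a limit, with a median of 0.40. The catalase gene *CTT1* (-3.29 without ethanol) and *SOD1* (-0.29) had no value with ethanol, so their response is unknown. The same holds for *OYE3* (-4.09) of the reductase list and *ALD4* (-3.11) of the aldehyde dehydrogenases.

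**Figure D2:**
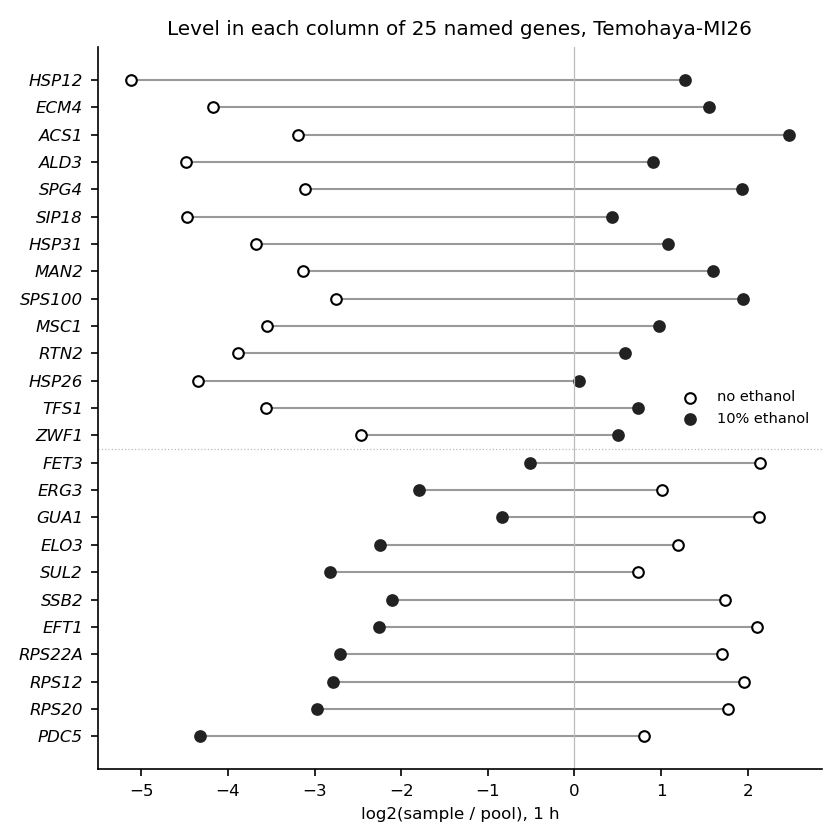
Log2 ratio to the pool 1 h after inoculation without ethanol (open circles) and with 10% ethanol (filled circles) for 14 genes that rose (above the dotted line) and 11 that fell, in Temohaya-MI26; each circle is 1 column, the median of 3 slides. The rising genes start between -5.12 and -2.46 and all end above the pool level of 0, and the falling genes start between 0.73 and 2.14 and end between -0.51 and -4.32.

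Chaperones did not move as 1 group. All 3 members of the list of small heat shock proteins and the disaggregase rose. *HSP26* went from -4.35 to 0.05 (4.47) and *HSP42* from -2.56 to 0.66 (3.30), both genes of small heat shock proteins that hold unfolded proteins in small aggregates, and *HSP104*, which pulls proteins out of aggregates, from -2.46 to -0.01 (2.53, but 1.30 and not called under loess). All 4 genes of the *HSP31* family, which encode methylglyoxal-removing chaperones, rose as well, with *HSP31* at 4.83, *HSP33* at 4.13, *SNO4* at 4.02 and *HSP32* at 2.91. *HSP32*, *HSP33* and *SNO4* are near-identical in sequence, and their spots cannot be told apart with certainty.

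Of 16 measured genes of the cytosolic Hsp70, Hsp110 and Hsp40 proteins, 2 rose and 2 fell, with a median of -0.22. *SSE2*, an Hsp110 gene, went from -2.45 to 0.58 (3.11), while *SSE1*, the gene of the main Hsp110, was at 0.75 and 0.07, a relative difference of -0.60. *SSA3*, a stress-inducible Hsp70 gene, rose by 2.20. The members that fell were *SSB2*, which went from 1.73 to -2.10 (-3.76), and *ZUO1* (-2.45). Both encode chaperones that sit on the ribosome and receive the new chain. *SSB1*, the near copy of *SSB2*, was at -1.34.

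The 14 genes of Hsp90 and its co-chaperones had a median of 1.37 and a mean of 0.68, since 3 members lay well below the rest. Only *SBA1*, the p23 co-chaperone gene, rose (from -1.72 to 0.43, 2.23), and its call was lost under loess (1.88) and quantile scaling (2.05). *HSP82*, the inducible Hsp90 gene, missed the limit narrowly with 2.13, and the prolyl isomerase gene *CPR6* had 2.10, *AHA1* 1.84 and *HSC82* 1.64. At the other end *PPT1*, a phosphatase of Hsp90, had -1.79, *TAH1* -1.69 and *CPR7* -1.52.

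Genes of protein folding in the endoplasmic reticulum (ER) stayed near the middle. Of 19 measured, only *ERO1*, which provides oxidizing power for disulfide bonds, rose. It went from -1.28 to 1.24 (2.60). *KAR2*, the Hsp70 of the ER, went from -0.73 to 0.71 (1.51). The protein disulfide isomerase genes *PDI1*, *MPD1*, *EUG1*, *EPS1* and *MPD2* had 0.84, 0.42, 0.12, 0.37 and -0.62. *IRE1* and *HAC1*, the sensor and the transcription factor of the unfolded protein response, had -0.25 and -0.31, and the list median was 0.12. *HAC1* is regulated by splicing of its mRNA, which these spots do not measure. Of 16 genes of ER-associated degradation, *UFD1* rose (2.25) and the median was 0.25.

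Protein breakdown had more and broader positive values. In the proteasome list 32 of 34 genes lay above the median of all ORFs, with a list median of 1.27, yet *RPN5*, a lid subunit, was the only one past the limit. It went from -1.66 to 0.71 (2.44). *RPN4*, which encodes the transcription factor of the proteasome genes, was just under the limit at 2.15, and the core subunit genes *PRE1*, *PRE6* and *PRE7* had 2.13, 2.10 and 2.03. *RPN9* (-1.53) and *RPN13* (-0.88) were the 2 members below the median. *UBI4*, the stress polyubiquitin gene, had 2.15, also just under the limit. Among 14 genes of ubiquitin and its conjugation *UBC5* rose (2.23), while *UFD4* (-2.37) and *RPL40A*, which encodes ubiquitin fused to a ribosomal protein, fell (-2.45).

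In the vacuole, 5 of 10 genes of proteases and their inhibitors rose and none fell, with a median of 1.98. *PEP4*, the aspartyl protease that activates the others, went from -2.27 to 0.76 (3.11), and *APE1*, an aminopeptidase gene, from -1.91 to 0.36 (2.36). The other 3 that rose were inhibitors or their relatives: *PAI3*, which inhibits Pep4 (2.41), *PBI2*, which inhibits the vacuolar protease B (2.21), and *YHR138C*, a gene similar to *PBI2*, which went from -3.41 to 0.99 (4.48). *TFS1*, an inhibitor of carboxypeptidase Y counted on another list, went from -3.56 to 0.74 (4.38). Under loess the calls of *APE1* (1.79), *PAI3* (1.45) and *PBI2* (0.98) were lost, the last 2 also under quantile scaling, and the list median was 1.09. None of 23 autophagy genes passed a limit. Their median was 0.83, with *ATG19* and *ATG31* at 1.82 and *ATG2* (-0.77) lowest.

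In carbon metabolism single enzymes passed the limits, at both ends of the range. *ACS1*, the acetyl-CoA synthetase gene that is repressed by glucose, went from -3.19 to 2.48 (5.74, or 53.5-fold) and reached the highest level of any ORF in the column with ethanol. *ACS2*, the gene of the other acetyl-CoA synthetase, was at 0.71 and -0.40 (-1.03). No other member of the 15 genes of gluconeogenesis and the glyoxylate cycle passed a limit, and their median was 0.43. *PDC5*, a pyruvate decarboxylase gene, fell from 0.80 to -4.32, a relative difference of -5.05 or 33.0-fold, and had the lowest level of any ORF in the column with ethanol. Its close homolog *PDC1* had no value in either column, and signal from the 2 genes cannot be told apart with certainty. *PDC6*, the minor isoform, had -1.54.

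Of 14 measured glycolysis genes 2 rose and *PDC5* fell. *GPM2*, a homolog of phosphoglycerate mutase, went from -3.72 to 0.06 (3.86), and *PFK26*, whose product makes the activator of phosphofructokinase, from -1.71 to 1.13 (2.92). The main enzymes could be followed only in part, since *TDH2* and *GPM1* had no value without ethanol and *GLK1* and *ENO2* none with ethanol. *TPI1* and *PFK1* had 1.63 and 1.62, *PFK2* and *PGI1* 0.05 and 0.02, and *HXK2*, the main hexokinase gene on glucose, -1.70. The list median was 0.39, and 0.82 over ORFs with values in every column, but -0.55 under loess correction.

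In the pentose phosphate pathway, which makes NADPH, 5 of 13 genes rose and 1 fell. *ZWF1*, the first enzyme, went from -2.46 to 0.50 (3.04). For the steps that have a pair of genes, the member that rose was the minor one: *SOL4* (3.38) and not *SOL3* (0.08), *GND2* (2.52) and not *GND1* (-0.83), *TKL2* (3.24) and not *TKL1* (-1.81), and *NQM1* (3.71) and not *TAL1* (0.33). These pairs were set side by side after their values had been seen. *RPE1*, the epimerase of the non-oxidative branch, fell by 2.33. The calls of *SOL4* (1.59) and *GND2* (0.82) were lost under loess, that of *GND2* also under quantile scaling.

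Of 13 genes of glycerol metabolism 3 rose and 1 fell, with a median of 1.53. Besides *GCY1*, they were *GUT2* (from -2.75 to 0.37, 3.20), the mitochondrial glycerol-3-phosphate dehydrogenase, and *GPD1* (from -1.85 to 0.24, 2.17), which makes glycerol-3-phosphate for the osmolyte glycerol. The call of *GPD1* was lost under loess (1.55) and quantile scaling (1.92). *GUP1*, an acyltransferase that anchors proteins in the membrane, fell from 1.62 to -1.77 (-3.32). The reserve carbohydrates had lower values. None of 7 trehalose genes passed a limit, the median was 0.91 and *TPS1*, the synthase, was highest at 1.74. Of 15 glycogen genes only *UGP1*, which makes UDP-glucose, rose (2.50, but 1.84 and not called under loess), and the list median of 0.60 became -0.18 under loess.

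Among 19 hexose transporters and sensors 4 rose, and none of them is one of the main transporters of growth on glucose. *HXT5*, a transporter of slow growth, had 3.02, and *HXT17*, *HXT13* and *HXT11* had 3.03, 2.36 and 2.35. These calls were kept under loess, while the list median went from 0.74 to 0.12. *MAN2* and *DSF1*, near-identical mannitol dehydrogenase genes that lie beside *HXT17* and *HXT13* near chromosome ends, rose too (4.81 and 3.84). *HXT15* and *HXT16*, which are close to *HXT13* and *HXT17* in sequence, had 1.53 and 1.68. Of 8 alcohol and butanediol dehydrogenase genes *SFA1*, the glutathione-dependent formaldehyde dehydrogenase (3.58), and *BDH2* (3.31, but 1.47 and not called under loess) rose, with a list median of 1.36 (0.30 under loess), and *BDH1* and *ADH5* had 2.08 and 2.03. No gene of the TCA cycle (19 measured, median 0.46, but -0.33 under loess), of the respiratory chain (22, median -0.09) or of the ATP synthase (12, median -0.52) passed a limit. *CIT1*, the mitochondrial citrate synthase gene, was the highest of the cycle at 1.88.

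**Figure D3:**
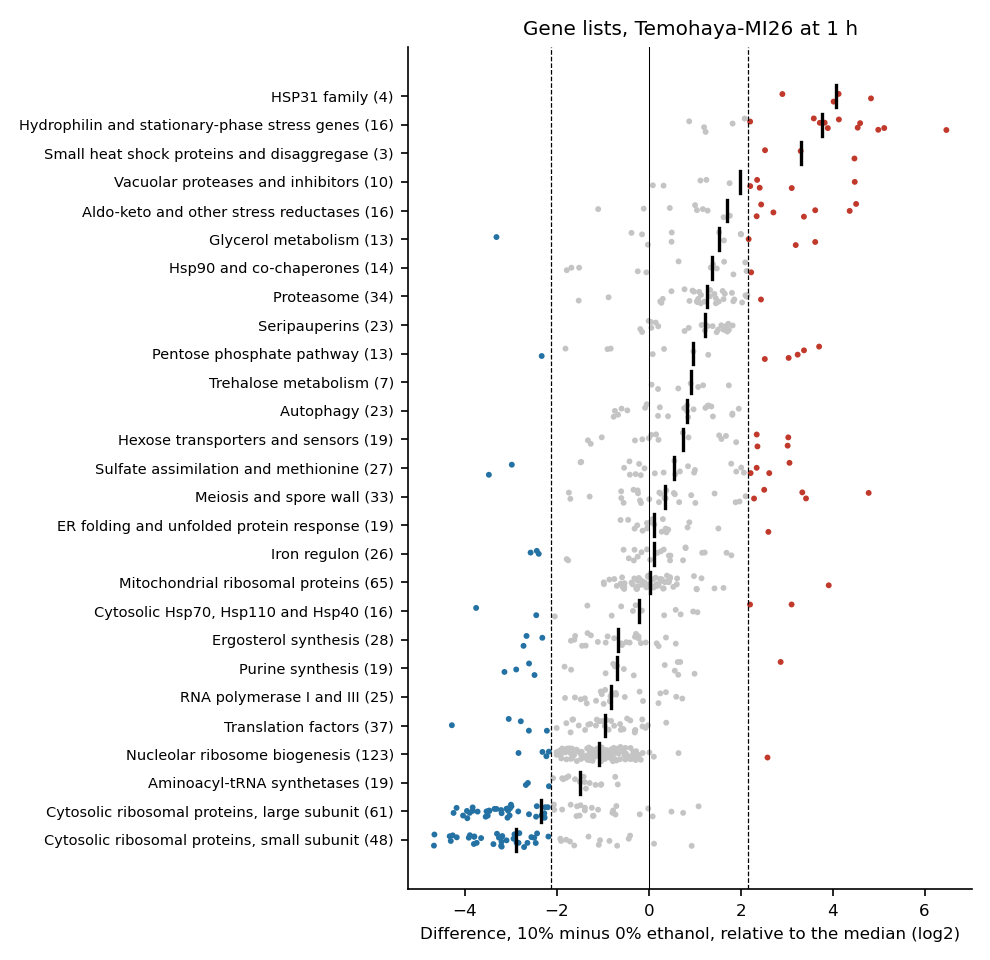
Difference between 10% and 0% ethanol, relative to the median of all ORFs, for each measured member of 27 gene lists, with the number of members in parentheses. Points are genes (red rose, blue fell, grey within the limits), black ticks list medians and dashed lines the limits; the medians run from 4.08 for the *HSP31* family down to -2.90 for the proteins of the small ribosomal subunit.

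Membrane lipids gave lower values or single rises. Of 28 genes of ergosterol synthesis 3 fell, none rose and the median was -0.68. *ERG3*, the C-5 desaturase, went from 1.01 to -1.79 (-2.73), *MVD1*, of the mevalonate pathway, from 1.33 to -1.41 (-2.66), and *ERG2*, the C-8 isomerase, from 0.59 to -1.80 (-2.32). Only 4 members lay above the median of all ORFs. Among 13 genes of fatty acid synthesis *ELO3* and *ELO2*, the elongases of very long chains, fell (-3.36 and -2.41). *OPI3*, the last methyltransferase toward phosphatidylcholine, rose from -3.62 to -0.40 (3.30) as the only one of 22 phospholipid genes, a call lost under loess (1.35). *HNM1*, the choline transporter gene, fell (-3.17). *CAT2* and *CRC1*, the acetyltransferase and the carrier of the carnitine shuttle, rose (2.48 and 2.16), 2 of 20 on the peroxisomal list, with *CAT2* at 1.33 and not called under loess.

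At the plasma membrane, *YRO2*, a relative of the heat shock gene *HSP30*, went from -2.75 to 0.67 (3.50). *MRH1*, the closest relative of *YRO2*, had 2.00, under the limit, and *HSP30* itself was at -1.27 and -0.83, a relative difference of 0.52. In the cell wall list, 1 of 28 genes rose, *PIR3* (from -2.08 to 1.22, 3.38), and the median was -0.44. The seripauperins, a family of near-identical wall protein genes at the chromosome ends, had a median of 1.23 over 23 members with none past a limit, between -0.19 (*PAU23*) and 1.82 (*PAU16*), and their spots cannot be told apart. *FLO1*, a flocculin gene, fell from 0.88 to -1.51 (-2.31).

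Of 33 genes of meiosis and the spore wall 5 rose and none fell. *SPS100*, a late gene of spore wall formation, went from -2.75 to 1.95 (4.78), and *RCK1*, a protein kinase gene, from -0.90 to 2.44 (3.42), the second highest level of all ORFs with ethanol. *SGA1*, the glucoamylase of sporulating cells (3.34), and the sporulation septin genes *SPR28* (2.51) and *SPR3* (2.29) also rose. The list median of 0.36 lay close to that of all ORFs.

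In amino acid metabolism single genes rose on each of several lists. They were *PUT1*, the proline oxidase (2.92), *CPA1*, of carbamoyl phosphate synthesis for arginine (2.90), *LEU1*, of leucine synthesis (2.77), and *UGA1*, the aminotransferase of the GABA shunt (3.14). The calls of *PUT1* (1.74) and *UGA1* (1.62) were lost under loess. No list among these had more than 1 member called, and none of 20 amino acid permease genes passed a limit. Of 27 genes of sulfate assimilation and methionine, *STR3* (3.06), *MET6*, the methionine synthase (2.62), the activator gene *MET28* (2.35) and *MET14*, the adenylylsulfate kinase (2.21), rose, whereas *SUL2*, a sulfate permease, fell from 0.73 to -2.82 (-3.48) and *SAH1*, which clears S-adenosylhomocysteine, from 1.47 to -1.59 (-2.98). Both falls and the rise of *STR3* were kept under loess, whereas the calls of *MET6* (1.39), *MET28* (1.85) and *MET14* (1.23) were lost, that of *MET14* also under quantile scaling, and the list median went from 0.56 to 0.23. *SNZ3*, of vitamin B6 and thiamine synthesis, rose (2.48) as the only member on both of its lists.

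Of 19 purine genes 4 fell and 1 rose, with a median of -0.69. *APT1*, of adenine salvage, went from 1.99 to -1.23 (-3.14), *GUA1*, which makes GMP, from 2.13 to -0.84 (-2.89), *IMD4*, the IMP dehydrogenase gene, from 1.67 to -1.01 (-2.61) and *GUK1*, the guanylate kinase, from 1.26 to -1.31 (-2.49). These lie on the branch to guanine nucleotides, apart from *APT1*. *ADE6*, of the common branch, rose (2.87).

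Metal uptake moved in opposite ways for single genes. *FET3* and *FTR1*, the oxidase and the permease of high-affinity iron uptake, were among the highest ORFs of the column without ethanol. *FET3* went from 2.14 to -0.51 (-2.57) and *FTR1* from 2.18 to -0.34 (-2.44). *FRE1*, the ferric reductase, fell as well (from 1.69 to -0.79, -2.40), while the siderophore transporter genes *ARN2*, *ARN1* and *SIT1* had 1.22, -0.44 and -1.76, and the median of the 26 genes of the iron list was 0.11. All 3 falls were lost under loess correction, with values between -1.92 and -1.57. *CTR3*, a copper transporter gene, fell (-2.98) and *CUP1-1*, the copper metallothionein, rose (2.67). *PHO84*, the phosphate permease (2.27), and *PHM7* (2.38) rose among 25 genes of the phosphate list, and the call of *PHO84* was lost under loess (0.73) and quantile scaling (1.76).

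The ribosome made up the largest share of the falls. Of 109 measured genes of cytosolic ribosomal proteins, 71 fell and none rose, which is 39.2% of the 181 ORFs that fell. In the small subunit 34 of 48 fell, with a median of -2.90, and in the large subunit 37 of 61, with a median of -2.34. *RPS20* went from 1.78 to -2.98 (-4.68, or 25.6-fold), *RPS12* had a difference of -4.67, *RPS22A* from 1.70 to -2.71 (-4.33), and in the large subunit *RPL9A* went from 1.56 to -2.70 (-4.18). A member of these lists was typically above the pool without ethanol and below it with ethanol, with medians of 1.34 and -1.69 for the small and 1.14 and -1.51 for the large subunit. A further 26 ribosomal protein genes on the array gave no difference. Of these, 22 lacked only the value without ethanol, and had values between -3.45 and -0.75 with ethanol.

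Many yeast ribosomal proteins are encoded by a pair of near-identical genes. The spots of such a pair cannot be told apart with certainty. Their members are therefore not separate readings, here or in the counts of falls above. In 46 pairs with both members measured, the 2 members differed by a median of 0.44 on the log2 scale, and by less than 0.5 in 25 pairs. Both members fell in 24 pairs and 1 member in 9. *RPL14A* and *RPL14B*, for example, had -3.03 and -3.06. In 2 pairs the gap was over 2, with *RPL41A*, which fell, 4.08 below *RPL41B* at 1.08, and *RPS27A* at 0.93 and *RPS27B* at -1.09. The highest values on these lists were those of *RPL41B* and *RPS27A*.

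The steps that build and serve ribosomes had lower values too, but few past the limit. All 19 measured aminoacyl-tRNA synthetase genes lay below the median of all ORFs, with a list median of -1.50, and *GUS1* (-2.68), *DED81* (-2.63) and *DPS1* (-2.17) fell. Of 37 translation factor genes 5 fell, and 36 lay below the median of all ORFs. *EFT1*, which encodes elongation factor 2, went from 2.11 to -2.25 (-4.29), and *STM1* (-3.05), *TIF11*, eIF1A (-2.79), *EFB1*, of elongation factor 1B (-2.61), and *CDC33*, the cap-binding protein (-2.22), followed. The spot of *EFT1* cannot be separated from that of its near copy *EFT2*, which had no value without ethanol. Among 123 genes of nucleolar ribosome biogenesis, 119 lay below the median of all ORFs, and the list median was -1.09. The snoRNP genes *NOP56* (-2.84), *NOP58* (-2.31) and *NOP1* (-2.18) fell with *UTP21* (-2.23), whereas *UTP22* rose. The calls of *NOP58* (-1.78) and *NOP1* (-1.72) were lost under loess, where the list median was -0.71. None of 25 genes of RNA polymerases I and III passed a limit (median -0.83, and -0.54 under loess).

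For the proteins of the mitochondrial ribosome the median of 65 genes was 0.02 (-0.27 under loess correction), and *MRP8* was the only one past a limit, with a rise from -2.97 to 0.87 (3.91). Despite its name, *MRP8* is not an established part of that ribosome. The histone genes had a median of -1.08 over 8 measured with none past a limit. Of 21 cyclin and CDK inhibitor list genes, *CAK1*, the kinase that activates Cdc28, rose (from -1.91 to 1.38, 3.37). *MF(ALPHA)2*, a gene of the α mating pheromone, fell (-2.94).

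The main regulators of the stress response lay within the limits. *MSN2* and *MSN4* had 0.07 and 0.46, *HSF1* 0.72, *YAP1*, of the oxidative stress response, 1.11, and *HOG1*, the osmotic stress kinase, 0.17. The list of 29 regulators and genes of the cAMP and protein kinase A pathway had a median of 0.07. *CYR1*, the adenylate cyclase gene, was an exception, with a rise from -3.95 to -0.41 (3.62), although its level with ethanol was still below the pool and the call was lost under loess correction (1.53). *TFS1*, whose product also binds the Ras GTPase activator Ira2, rose (above), and *IRA2* itself fell from 0.97 to -1.42 (-2.31). *TPK2* and *TPK3*, genes of catalytic subunits of protein kinase A, had 1.33 and -0.55, the regulatory subunit gene *BCY1* 1.17, and *GPA2*, the G protein of glucose sensing, 1.62.

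Not all called ORFs are annotated genes. Of 415 measured ORFs absent from the RefSeq annotation, 8 rose and 12 fell. Such ORFs made up 4.97% of the rises and 6.63% of the falls, against 7.07% of all measured ORFs. Among the 15 highest differences were *YBR116C* (from -4.10 to 1.13, 5.31) and *YFL012W-A* (from -3.80 to 1.18, 5.05). By their systematic numbers, 2 of 7 that rose and 3 of 12 that fell had a next ORF called the same way, and the others, the larger number, did not. A next ORF without a difference could not be called, as *GPM1* beside *YKL153W*. One ORF that rose has no systematic number of this form. *YBR116C* adjoins *TKL2* (3.24), *YGL102C* (-3.84) adjoins *RPL28* (-3.08), *YLR198C* (-3.15) adjoins *NOP56* (-2.84) and *YOR309C* (-2.31) adjoins *NOP58* and *YMR173W-A* (2.82) adjoins *DDR48*, the last 2 pairs without a call under loess. Double-stranded spots read both strands, so an ORF that overlaps another gene cannot be separated from it. *YAR066W* and *YHR214W*, a near-identical pair at chromosome ends, fell by much the same amount (-4.04 and -4.16).

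Called genes also lay side by side on the chromosomes. Of 4968 pairs of adjacent annotated genes with both measured, 24 pairs had both members rise, 12 both fall and 6 opposite calls. *ECM4* (5.80) adjoined *MSA2* (2.97), *SPS100* (4.78) adjoined *YHR138C* (4.48) and the latter *ARO9* (2.65), *YML131W* (4.37) adjoined *ERO1* (2.60), and *PAI3* (2.41) lay between *DDR48* (2.20) and *SIP18* (4.99). Divergent pairs, which share the sequence between their starts, made up 6 of the 24 rising and 6 of the 12 falling pairs, and 1274 of all 4968. Convergent pairs, which do not share it, made up 10 of the rising, 3 of the falling and 1302 of all pairs. Tandem pairs made up 8 of the rising, 3 of the falling and 2392 of all pairs. The falling divergent pairs included *RPS16B* with *RPL13A*, *RPS16A* with *RPL13B* and *RPL24A* with *RPL30*. By chromosome arm, the medians ran from -0.29 (left arm of V, 80 ORFs, and right arm of I, 31 ORFs) to 0.50 (right arm of IX, 41 ORFs).

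The limits cut through a continuous range. Just past the upper limit were *LSB1* (2.16), *CRC1* (2.16), *IGO1* (2.17), *IRC23* (2.17) and *GPD1* (2.17), and just short of it *ERR3*, *UBI4*, *RTS3* and *RPN4* (each 2.15) and *YFL012W* (2.14). Just past the lower limit were *SFT1* (-2.13), *VBA4* (-2.14), *GSP1* (-2.14), *SVS1* (-2.15) and *YCR097W-A* (-2.15), and just short of it *HOP2* (-2.13), *LIA1* (-2.12), *EGD2* (-2.12), *YBR138C* (-2.12) and *CIS3* (-2.11). Besides the call of *GPD1* (above), that of *IRC23* was lost under quantile scaling (2.065) and that of *YCR097W-A* under loess (-1.57).

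CECT10094 at 1 h, which shares no column of samples with Temohaya-MI26, was set beside it for the 5814 ORFs measured in both. By the same rule 2.18% of its measured ORFs rose and 3.53% fell, past limits of 1.87 and -1.95 relative to its own median. Across ORFs the differences had a Pearson correlation of 0.77 and a Spearman correlation of 0.72, as a description over ORFs that share arrays, pool and design and are not independent. The Pearson correlation was 0.64 under loess. Of ORFs measured in both strains, 62 rose in both, which is 39.0% of the 159 that rose in Temohaya-MI26 and 50.0% of the 124 that rose in CECT10094. The number that rose in both was 41 under quantile scaling and 21 under loess. Of the falls 126 were in both, or 72.0% of 175 and 61.5% of 205. No ORF had opposite calls. A difference between strains was not tested, as each has 1 column per condition.

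The ORFs that rose in Temohaya-MI26 had a median difference of 2.71 there and 1.66 in CECT10094, where the same ORFs had started equally low without ethanol (-1.98 relative to the column median against -1.97) but reached -0.12 and not 0.96 with ethanol. These ORFs were chosen by their value in Temohaya-MI26, which by itself places them higher there. For the ORFs that fell the medians were -2.75 and -2.49. The 10 largest gaps in favour of Temohaya-MI26 included *YRO2* (3.50 against -0.36), *ALD3* (5.46 against 1.75), *SIP18* (4.99 against 1.31), *SPG4* (5.12 against 1.45), *ECM4* (5.80 against 2.53), *HBT1*, of the mating projection (3.94 against 0.82), and *MRH1* (2.00 against -1.39). *ALD3* stood at -4.48 without ethanol in Temohaya-MI26 and -4.55 in CECT10094, but at 0.91 and -2.37 with ethanol. *YRO2* was at -2.75 and -0.70 without ethanol and at 0.67 and -0.64 with ethanol, and so differed in both. The gaps of the small heat shock protein and disaggregase genes were under 1, as *HSP26* had 4.47 against 5.00, *HSP42* 3.30 against 3.81 and *HSP104* 2.53 against 2.75.

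List medians of the strains lay apart for some groups and close for others. Hydrophilin and stationary-phase genes had 3.77 in Temohaya-MI26 and 1.68 in CECT10094, the proteasome 1.27 and 0.49, the seripauperins 1.23 and 0.33 and Hsp90 with its co-chaperones 1.37 and 0.64. Other lists had the higher median in CECT10094. Vitamin B6 genes had 0.43 in Temohaya-MI26 and 1.47 in CECT10094, the galactose regulon 0.17 and 1.04 and arginine metabolism -0.44 and 0.48. Closer to each other were the medians of the small heat shock proteins (3.30 and 3.81), trehalose genes (0.91 and 1.04), translation factors (-0.96 and -1.04) and large subunit ribosomal proteins (-2.34 and -2.44).

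Among single genes with CECT10094 above, *THI12* and *THI13*, near-identical genes of thiamine precursor synthesis, had 0.62 and 0.98 in Temohaya-MI26 against 3.87 and 4.07 in CECT10094. Of the same family, *THI11* had 0.09 against 2.66, but *THI5* had 1.35 against 0.39. *GAL10*, of galactose use, had -0.95 against 2.33, and *MPD1* 0.42 against 2.88. *FET3* (-2.57 against 0.39) and *FTR1* (-2.44 against 0.21) started far apart without ethanol, with *FET3* at 2.14 in Temohaya-MI26 and -1.29 in CECT10094, and met with ethanol at -0.51 and -0.47. *FLO1* had -2.31 against 0.68.

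**Figure D4:**
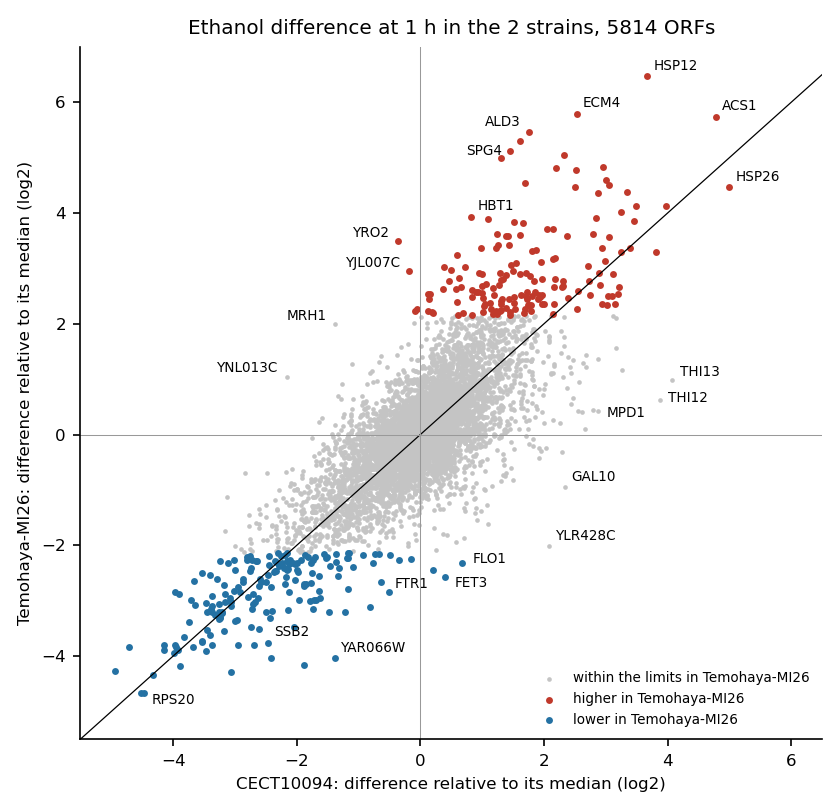
Difference with ethanol at 1 h in CECT10094 (horizontal) and Temohaya-MI26 (vertical) for 5814 ORFs, each relative to the median of its strain, on the log2 scale; colours mark calls in Temohaya-MI26 and the line equal values. Of the 175 falling ORFs shown, 126 fell in both strains, whereas *FLO1*, *FET3*, *FTR1* and *YAR066W* lie well below the line. *ALD3*, *SPG4* and *YRO2* lie far above the line and *THI12*, *THI13* and *GAL10* far below it.

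The late pair of columns of the same strain, shares no column with the first hour. It was sampled by growth stage (exponential phase in the labels, past it in the methods) and the methods give a later hour for the culture with ethanol than for that without, so culture time and ethanol cannot be told apart in it. Across 5399 ORFs the early and late differences had a Pearson correlation of -0.07 and a Spearman correlation of -0.06. Of the ORFs that fell at 1 h and were measured late, 145 of 176 (82.4%) lay above the late median, against 49.9% of all ORFs, and their median late difference was 0.76. The small subunit of the ribosome went from a list median of -2.90 to 1.11 and the large subunit from -2.34 to 0.84. Of the ORFs that rose at 1 h, 87 of 154 (56.5%) lay above the late median, with a median of 0.18. *HSP12* (6.47 early, 2.94 late), *ECM4* (5.80 and 2.87) and *RCK1* (3.42 and 3.55) stayed high, while *ACS1* (5.74 and -1.81), *TFS1* (4.38 and -1.60) and *UGP1* (2.50 and -1.05) had the opposite sign late. *YAR066W* and *YHR214W* were low at both stages (late -4.24 and -4.52).

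**Figure D5:**
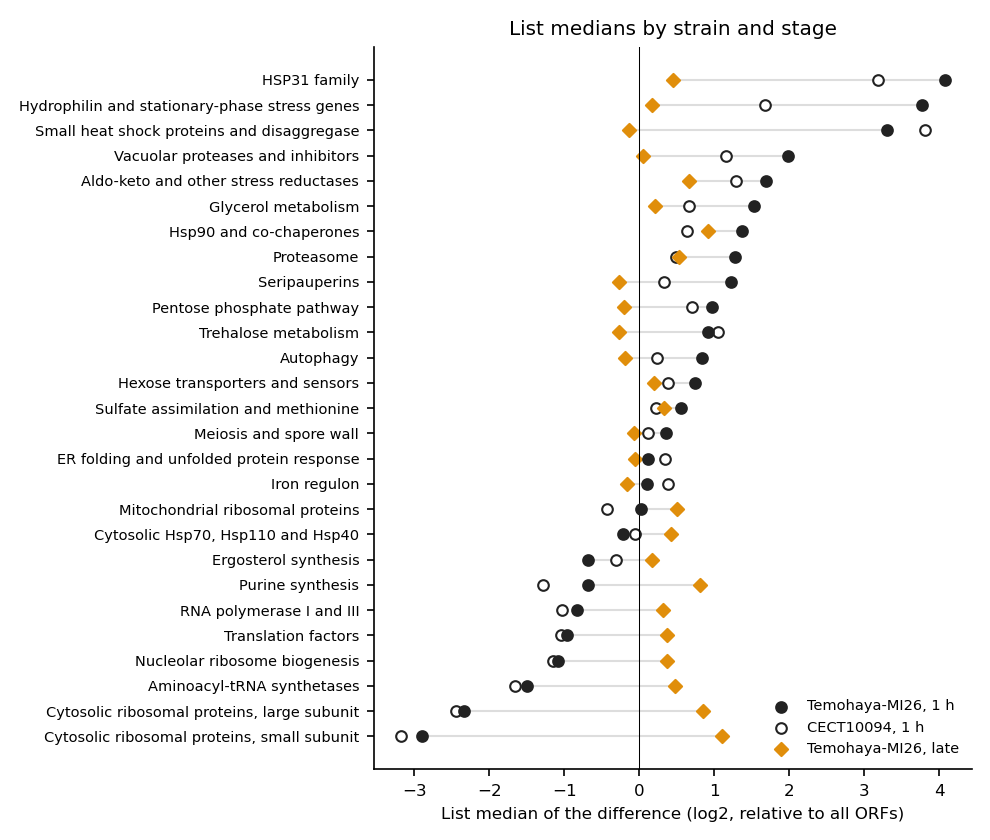
List median of the difference with ethanol, relative to all ORFs of the same comparison, for 27 gene lists in Temohaya-MI26 at 1 h (filled circles), CECT10094 at 1 h (open circles) and Temohaya-MI26 at the late stage (diamonds), on the log2 scale. Ribosome lists lie at -2.90 and -2.34 at 1 h and at 1.11 and 0.84 late, and the stress lists at the top fall back to between -0.14 and 0.44 for the first 3 rows.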

How the data were processed

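Per the labels, each deposited column holds log2 ratios of Cy5 (sample) to Cy3 (pool of RNA from all samples). The authors subtracted a global background from the spot intensities, normalized the ratios, then took the median over 3 slides for every condition, keeping spots measured on at least 2 of them. Slides are thus not separate, and the error and depth behind a value are unknown. The authors' table of differences between ethanol levels holds their own comparisons and was not used. From the value table of 6154 entries, 2 controls were left out. Of 6152 ORFs, 5653 matched RefSeq by locus tag and the rest keep their systematic name. No column was normalized further. The column without ethanol was subtracted from the column with ethanol, and the median difference from the result. Calls used the multiple of the standard deviation given in the study's methods. Their accompanying 5% false discovery rate could not be applied. The strain labelled PE35M was taken as CECT10094, as the methods state.

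The genes, the 68 gene lists, the limits and the comparisons were chosen with earlier results of these data known, and no test was made of a list. Of the list entries, 2 matched no gene. The genes named were the 15 highest and 15 lowest, up to 5 called members per list and direction, all members of the ER folding, Hsp90, proteasome and stress regulator lists, the 10 largest gaps between strains each way, the 5 ORFs nearest each limit on each side, and pairs of similar genes. Paralogs, chromosomal neighbours, *HNM1*, further called members of the hydrophilin, reductase and ribosomal lists, and members that were not called were added after their values had been seen. The calculation was tested on simulated data. Alternatives were quantile normalization of the 8 columns, a loess correction of the difference on the mean of both columns, ORFs with values in every column, ORFs in RefSeq, a wider multiple of the standard deviation, the scaled median absolute deviation (MAD) around the median, a fixed log2 difference of 1, list means and Spearman's correlation. Python 3.11.15, pandas 2.3.3, statsmodels 0.14.6 and matplotlib 3.10.9 were used.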

Additional observations from a re-analysis of the deposited data

Results flagged for a closer look

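In 2 ORFs the strains moved in opposite directions by 1 or more on the log2 scale, with a call in 1 strain. *YLR428C* went from 1.91 to -0.18 in Temohaya-MI26, a relative difference of -2.02, and from -2.15 to 0.36 in CECT10094 (2.09, past the limit there), a gap of -4.10. *YNL013C* went from 0.89 to 1.86 in Temohaya-MI26 (1.05) and from 0.30 to -1.43 in CECT10094 (-2.16, past the limit there), a gap of 3.21. Neither ORF is in the RefSeq annotation. This contrast of strains was not tested, for want of replicate columns. No group had enough columns for a search for outlying samples.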

How the results depend on the processing

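The counts of 161 ORFs that rose and 181 that fell lay between 152 and 162 and between 164 and 191 under quantile normalization, loess correction, ORFs with values in every column and ORFs in RefSeq. They became 71 and 89 with the wider multiple of the standard deviation, 337 and 335 with the MAD, and 811 and 789 at a fixed log2 difference of 1. Quantile normalization shared 146 of the rises and all 181 of the falls, and loess correction 114 and 167. No call of a named gene changed sign. Differences whose call was kept under loess could still shrink, as for *ECM4* (4.475), *ALD3* (3.70) and *HSP26* (2.41). That of *ACS1* changed little (5.66) and that of *PDC5* grew (-6.79). Among genes named by rule, 8 calls were lost under quantile normalization, 29 under loess and 5 with ORFs valued in every column. Most of these stand beside the genes above. Of calls by list, loess kept 10 of 11 for hydrophilins, 33 of 34 and 36 of 37 for the small and large ribosomal subunits, 4 of 7 for reductases, 2 of 5 for vacuolar proteases, 1 of 4 rises for sulfate and methionine, and 0 of 3 falls for iron. Under loess the list medians changed sign for glycogen (-0.18), glycolysis (-0.55), the TCA cycle (-0.33), the phosphate regulon (-0.11), mitochondrial chaperones (-0.21), mitochondrial ribosomal proteins (-0.27), proline metabolism (-0.09), branched-chain amino acid synthesis (0.02) and cytosolic Hsp70 and Hsp40 (0.05). No paired analysis was possible because each condition has 1 column. Searches of promoters for motifs and of proteins for near-identical copies were not run, as no sequences were used here.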

Other observations

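The groups that follow were put together after their values had been seen and are given as values only. In the supply of mannose to glycoproteins, 4 of 19 measured genes fell and none rose, with a median of -0.97 against -0.35 in CECT10094. They were *VRG4*, the Golgi transporter of GDP-mannose (from 1.20 to -2.09, -3.21), *STT3*, the catalytic subunit of oligosaccharyltransferase (-2.35), and *PMI40* and *SEC53*, which make mannose 6-phosphate and mannose 1-phosphate (-2.25 and -2.22). *PMT4*, a protein mannosyltransferase gene, had -2.07 and *PSA1*, which makes GDP-mannose, -1.22. Of 12 genes of pyrimidine synthesis and salvage, *FUR1* (-2.71), *URA7*, the CTP synthase (-2.54), and *URA5* (-2.28) fell, with *URA7* at -1.89 and not called under loess correction.

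Of 10 genes of the eisosome, a furrow of the plasma membrane, 3 rose. *NCE102* went from -2.36 to 0.52 (2.96), *FMP45* from -2.35 to 0.36 (2.79) and *PIL1*, a core component, from -1.33 to 0.82 (2.23), while *SUR7* had -0.43. The call of *FMP45* was lost under loess (1.90). Of 12 measured genes of decapping and mRNA decay, 3 rose and 1 fell, with a median of 0.44. *DCS1* (2.36, not called under loess), the gene of the scavenger decapping enzyme, and *DCS2*, that of its regulator (from -3.19 to 0.30, 3.57), rose. *IGO1* (2.17) rose too, and *PAN2* fell (-2.49). *EDC1* had 1.40, and *DCP1*, *DHH1* and *XRN1* had 0.64, -0.06 and -0.08. *PNC1*, the nicotinamidase gene, rose from -2.51 to 0.08 (2.66, but 1.47 and not called under loess), and the other 10 measured genes of NAD synthesis and salvage lay between -0.76 and 1.17.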
